A study of Mus musculus with 12 samples.

Results

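The members described are the mRNAs of the mitochondrial respiratory chain and ATP synthase in mouse liver. They were chosen by gene symbol alone, as every row of the deposited table whose symbol begins with mt-, Nduf followed by a, b, c, s or v, Uqcr, Cox4 to Cox8 or Atp5, or is Sdha to Sdhd, Cyc1 or Cycs. This gave 52 of 3799 rows, of which 13 were encoded by mitochondrial DNA and 39 by nuclear genes. The mitochondrially encoded members were the full set of protein-coding genes of that genome, with 7 for complex I, 1 for complex III, 3 for complex IV and 2 for complex V. The nuclear members were 16 subunits of complex I, 2 of complex II, 4 of complex III, 5 of complex IV and 7 of complex V, plus 5 others whose symbols match but which are not counted here as subunits (Ndufaf4, Ndufaf5, Ndufa4l2, Cox7a2l and Atp5s). The symbol pattern was thus met in part by assembly and supercomplex factors, and the nuclear set was incomplete because the table holds only genes that the authors selected. The deposit labels them as differentially expressed genes, by a rule not given in the sources used here. Shares of all genes and adjusted p-values below refer to these selected rows, not to all genes expressed in liver. By their label, the rows had been picked as differing before the tests made here. If that choice used these same libraries, the p-values and counts of calls below are not independent of it. The rescaled values below also rest on these rows alone.

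Livers of male C57BL/6J mice, treated from 8 weeks of age, were compared in 4 groups of 3 animals, Saline and 3 that received doxorubicin. These 3, called DOX, DOX + K35 and DOX + K27, were given this DNA-damaging drug intraperitoneally at 10 mg/kg on days 0 and 7, as a model of accelerated ageing, and Saline mice received saline, although the sample labels call them vehicle. From day 2, DOX + K35 and DOX + K27 mice were given 50 mg/kg of K35 or of its analog K27 into the stomach every other day, DOX mice were given the vehicle, and liver was collected on day 20. The study chose both compounds for their action on aggregates of the glycolytic enzyme PKM2. The question taken up here is how the mRNAs of one multi-subunit machine, drawn from 2 genomes, differed between these groups.

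The respiratory chain passes electrons from NADH (through complex I) and succinate (through complex II) to complex III, cytochrome c and complex IV, which hands them to oxygen, while complex V uses the proton gradient so formed to make ATP. Complex II is encoded wholly by nuclear genes. The other complexes combine a hydrophobic core made from mitochondrial DNA with nuclear subunits imported from the cytosol. Mitochondrial DNA is transcribed inside the organelle as long RNAs that are then cut into shorter ones. Liver is rich in mitochondria, and hepatocytes use the chain to supply ATP for gluconeogenesis, urea synthesis and the oxidation of fatty acids.

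Sequences are shown for 2 reasons. The mitochondrial mRNAs overlap on their genome, which limits how far their values are separate measurements. On the mitochondrial chromosome of GRCm38, the start of mt-Atp6 lies inside the end of mt-Atp8 over chrM:7927-7969, and the ends of mt-Nd5 (plus strand) and mt-Nd6 (minus strand) meet over chrM:13552-13565. Both of these overlaps are given on the plus strand, in lower case because no base in them is singled out. In addition, mt-Nd4l and mt-Nd4 share 7 bases over chrM:10167-10173, which are not printed.
mt-Atp8 and mt-Atp6: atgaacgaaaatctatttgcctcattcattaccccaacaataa
mt-Nd5 and mt-Nd6: ttaatctcgagtaa
Across the 12 libraries mt-Nd6 stood at 0.983 to 1.13 times mt-Nd5, and mt-Atp8 at 0.726 to 0.875 times mt-Atp6, on the FPKM scale (fragments per kilobase of transcript, scaled to library size). The sources used here do not say whether strand was used in counting, so reads of mt-Nd6 and of RNA from the opposite strand cannot be told apart. The nuclear genome also holds copies of mitochondrial DNA, and how reads that match several places were counted is not given in the sources used here.

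The nuclear members, in contrast, have separate promoters. Those of 3 members are shown, from the RefSeq table for GRCm38.p6, as 300 bases that span the start of the gene. Sdha and Sdhd, both in complex II, had the highest and the third highest log2 fold change of all members in DOX + K35 against DOX. Uqcr11, a small subunit of complex III, holds the same kinds of motif and did not pass the test with the values as deposited. Capitals mark matches to the NRF1-type core GCGCANGCG or the ETS-type motif CCGGAAG on either strand.
Sdha, chr13:74350191-74350490, minus strand: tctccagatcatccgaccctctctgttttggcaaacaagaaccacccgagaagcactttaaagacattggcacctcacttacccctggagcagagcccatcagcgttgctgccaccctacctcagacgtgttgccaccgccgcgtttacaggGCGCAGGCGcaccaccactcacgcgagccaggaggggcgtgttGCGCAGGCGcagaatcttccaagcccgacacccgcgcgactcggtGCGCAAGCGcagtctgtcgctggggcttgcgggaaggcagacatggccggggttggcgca
Sdhd, chr9:50603800-50604099, minus strand: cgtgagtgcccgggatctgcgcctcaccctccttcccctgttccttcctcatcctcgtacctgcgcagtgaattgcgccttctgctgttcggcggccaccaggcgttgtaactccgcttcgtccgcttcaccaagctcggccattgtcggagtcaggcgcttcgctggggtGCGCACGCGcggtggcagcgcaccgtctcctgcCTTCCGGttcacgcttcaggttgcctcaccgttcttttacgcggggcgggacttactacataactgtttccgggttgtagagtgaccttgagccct
Uqcr11, chr10:80406772-80407071, minus strand: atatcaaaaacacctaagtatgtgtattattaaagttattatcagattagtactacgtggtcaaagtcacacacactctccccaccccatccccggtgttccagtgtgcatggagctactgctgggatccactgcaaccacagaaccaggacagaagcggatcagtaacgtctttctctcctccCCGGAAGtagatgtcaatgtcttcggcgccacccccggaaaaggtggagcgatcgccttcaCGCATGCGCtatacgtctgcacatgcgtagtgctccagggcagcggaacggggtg
Promoters were found for 30 of the 39 nuclear members. A gene was counted if any of its promoters held the motif. The NRF1-type core occurred in 10 of these 30 (33.3%) and in 7.03% of the 27025 genes with a promoter, expressed in liver or not. The ETS-type motif occurred in 8 (26.7%) and in 9.93%, and the YY1-type motif AAGATGGCG in 3 (10%) and in 1.64%. Whether the matches go with the response of the members was not tested, and few members allow a comparison. Of the 10 nuclear members higher in DOX + K35 than in DOX, 6 had a promoter in the table and 3 of these held the NRF1-type core.

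Values were analysed as FPKM, a scale on which a gain in very abundant mRNAs lowers all others. Rows with the prefix mt- made up 37.9% to 83.3% of the summed FPKM of the table, so members were also examined after each library was scaled to the sum of its rows without mt-. The table gives no read counts, so depth per library is unknown and errors are those between animals. Of the DOX libraries, B4 stood apart, with the lowest level over all 12 libraries for 9 of the 10 nuclear members that were higher in DOX + K35 than in DOX. All 52 members had a mean of at least 1 FPKM and were tested. Positions of genes are those of GENCODE M21 on GRCm38. For DOX and DOX + K35 the table's codes B3, B4 and C4 were not matched to a single labelled animal and were used by group only.

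The mitochondrially encoded mRNAs were highest in DOX and lowest in DOX + K35. Their summed FPKM was 123435, 133700 and 215867 for Saline, 200644, 335040 and 521995 for DOX, 84734, 91661 and 130379 for DOX + K35 and 133948, 155920 and 255398 for DOX + K27. The DOX libraries all lay above every DOX + K35 library, whereas 1 Saline library and 1 DOX + K27 library lay within the DOX range. Summed nuclear members stayed in a narrower range, at 3388 ± 54.7 FPKM for Saline, 2761 ± 678 for DOX, 3194 ± 59.8 for DOX + K35 and 3253 ± 140 for DOX + K27 (mean ± SD, n = 3). In DOX, library B4 was lowest at 1979 FPKM, and the other 2 DOX libraries stood at 3175 and 3129. As a share of all rows without mt-, nuclear members made up 2.504% ± 0.0541, 2.45% ± 0.497, 2.30% ± 0.0635 and 2.52% ± 0.182 in the same order.

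The ratio of mitochondrially encoded to nuclear FPKM, which no scaling of a library can alter, was compared next. It was 37.1, 38.9 and 63.6 for Saline, 63.2, 107 and 264 for DOX, 27.01, 28.7 and 40.03 for DOX + K35 and 39.4, 49.9 and 79.0 for DOX + K27. On average DOX was 2.69-fold above Saline (log2 difference 1.43), but the highest Saline library exceeded the lowest DOX library by a small margin (two-sided exact permutation p = 0.2). DOX + K35 lay 1.95 below DOX on the log2 scale with no overlap (exact permutation p = 0.1, the smallest that 3 libraries against 3 allow). DOX + K27 differed from DOX by a log2 value of -1.17, with overlap (exact permutation p = 0.2). After adjustment over the 6 comparisons each of these exact p-values was 0.3.

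**Figure D1:**
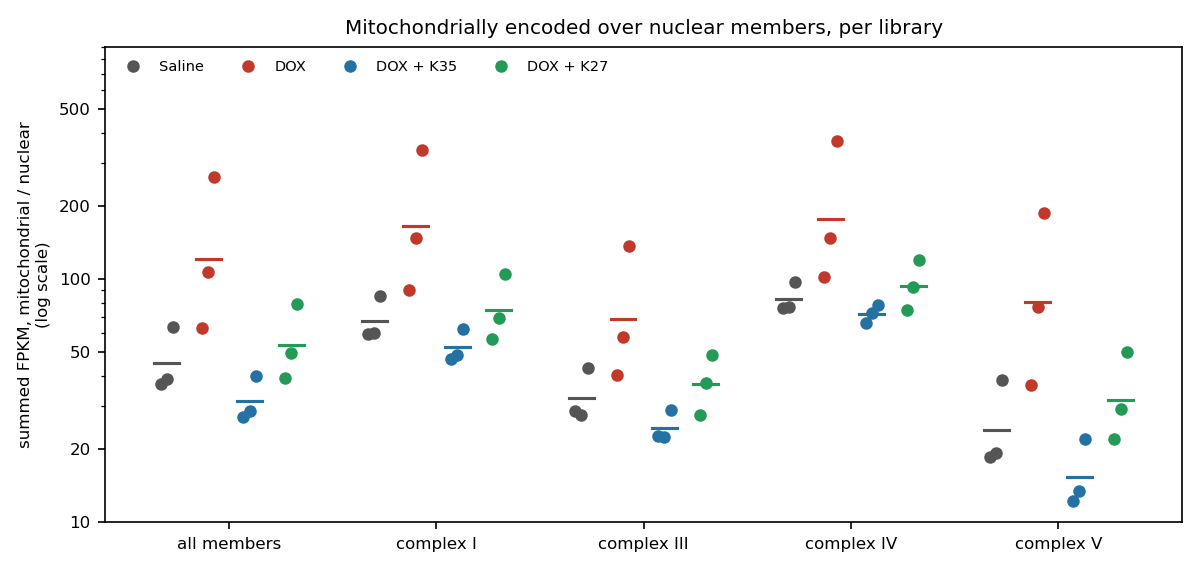
Ratio of summed FPKM of mitochondrially encoded to nuclear members in each library (log axis), for all members and for the complexes built from both genomes. Points are libraries and bars are geometric means of 3. For complexes I and IV the 3 DOX libraries lie above all Saline libraries, and in all 4 complexes they lie above all DOX + K35 libraries.

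The complexes differed in the size of the log2 difference between groups, as a description. For complex V the ratio was 18.6, 19.4 and 38.6 for Saline, 36.7, 76.5 and 187 for DOX, 12.3, 13.4 and 22.1 for DOX + K35 and 22.00, 29.3 and 50.3 for DOX + K27. The mean log2 difference between DOX + K35 and DOX was -2.39 for complex V, -1.66 for complex I, -1.49 for complex III and -1.30 for complex IV, and in each the groups did not overlap (exact permutation p = 0.1). Between DOX and Saline it was 1.75 for complex V, 1.30 for complex I, 1.10 for complex IV and 1.08 for complex III, with no overlap in complexes I and IV (exact permutation p = 0.1) and overlap in complexes III and V (exact permutation p = 0.2). Whether the complexes differed from each other was not tested. The abundant nuclear rows of complex V include the catalytic subunits Atp5a1 and Atp5b, while the catalytic subunits of complex IV are mitochondrially encoded.

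Within the mitochondrial genome the 13 rows moved as a block. mt-Co1, the catalytic subunit of complex IV and the highest row, took 22.3% to 25.1% of their summed FPKM in every library. It had 29411, 33606 and 52992 FPKM for Saline, 50050, 77628 and 129662 for DOX, 20398, 21246 and 30695 for DOX + K35 and 32853, 34816 and 60797 for DOX + K27. The DOX + K35 libraries lay below all DOX libraries. mt-Co1 fell by 1.75 ± 0.37 (SE) on the log2 scale in DOX + K35 against DOX (limma, Benjamini-Hochberg adjusted p = 0.00526). mt-Nd3, a small membrane subunit of complex I and the lowest of the 13, had 632, 703 and 1148 FPKM for Saline, 923, 1761 and 2932 for DOX, 458, 522 and 749.8 for DOX + K35 and 818, 788 and 1229 for DOX + K27. It showed the same order of groups at a far lower level. Over the 13 rows, log2 fold changes in DOX + K35 against DOX ran from -1.80 (mt-Nd2) to -1.57 (mt-Atp8).

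All 13 mitochondrially encoded rows passed the test as lower in DOX + K35 than in DOX, with limma adjusted p from 0.00516 to 0.00817. Among all 3317 genes tested, 10.7% were called lower in this comparison. For all 13 the groups did not overlap, as for 59.7% of all genes tested. They include the 7 subunits of complex I (mt-Nd1 to mt-Nd6 and mt-Nd4l), which form its proton-pumping membrane arm. They also include cytochrome b of complex III (mt-Cytb), 3 subunits of the complex IV core (mt-Co1 to mt-Co3), and 2 subunits of the membrane part of complex V (mt-Atp6 and mt-Atp8). After scaling to the sum of rows without mt- all 13 were again called lower, with log2 fold changes from -2.11 to -1.88, and 27.6% of all genes were then called lower. With values as deposited, the 13 were called in each of 12 fits that left out 1 library.

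In DOX against Saline the 13 log2 fold changes lay between 1.04 (mt-Atp8) and 1.18 (mt-Nd5), and none passed the test (limma adjusted p from 0.0612 to 0.0725). At an unadjusted p under 0.05 all 13 were past the line, as were 47.4% of all genes tested, while 0.181% of all genes passed after adjustment. Only mt-Nd1 did not overlap between these groups, against 35.3% of all genes. The call depended on single libraries. Without Saline replicate 3 (A3) or without DOX replicate 1 (B1), all 13 were called higher in DOX by limma, where 4.55% and 2.57% of all genes were called higher.

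**Figure D2:**
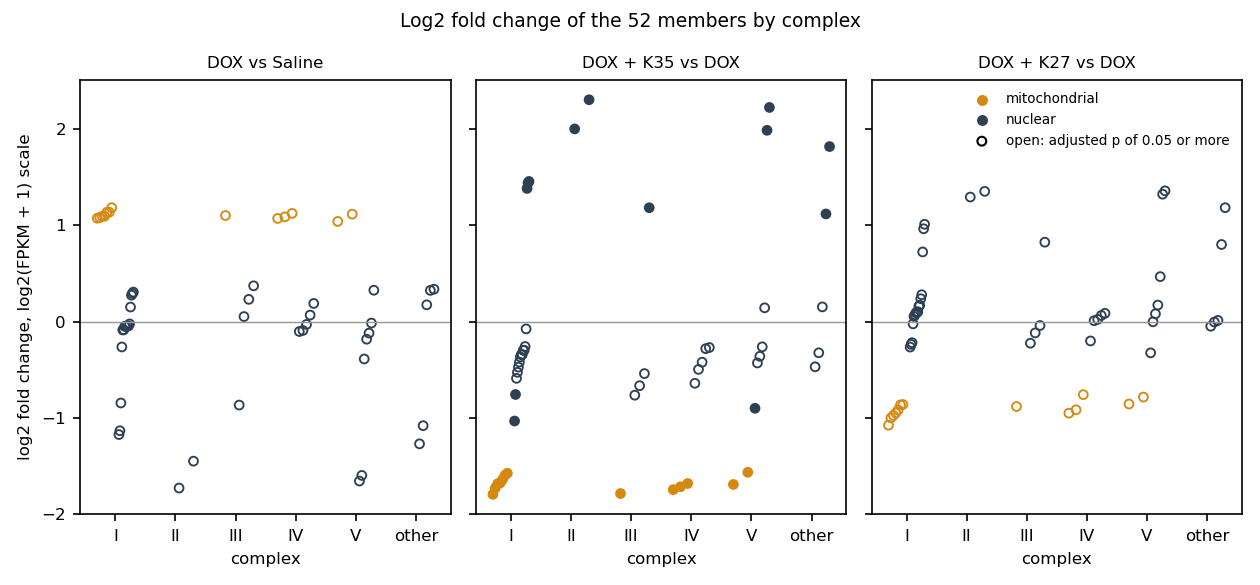
Log2 fold change (log2(FPKM + 1) scale) of each of the 52 members, by complex, in 3 comparisons that share the DOX libraries. Filled points passed an adjusted p of 0.05 in limma and open points did not. Mitochondrially encoded members form 1 tight cluster per complex, whereas nuclear members spread on both sides of 0, from -1.03 to 2.31 in DOX + K35 against DOX.

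The nuclear members did not move as a block. In DOX + K35 against DOX 10 of 39 rose and 3 fell, while 46% of all genes tested were called higher and 10.7% lower. The share of nuclear members that rose was below that of all genes tested, and the median log2 fold change was -0.32 for nuclear members and 0.46 for all genes. The 10 that rose included Sdha, Sdhd, Atp5a1, Atp5b, Cox7a2l, Ndufs1, Ndufv1, Cyc1 and Ndufaf5. With values as deposited, each of the 10 was called in all 12 fits that left out 1 library. The 3 that fell were Ndufa5, Atp5e and Ndufv3, of which Ndufa5 alone was called in all of those fits. Without library B4, 10 nuclear members were called higher and 11 lower, against 37.7% and 11.7% of all genes. Groups did not overlap for 23 of the 39, a share near the 59.7% of all genes.

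Scaling to the sum of rows without mt- moved the median of all genes from 0.46 to 0.21 in this comparison and from -0.34 to -0.13 in DOX against Saline. With it, the same 10 nuclear members were called higher and 18 were called lower, against 42.4% and 27.6% of all genes. The 18 comprised Ndufa5, Atp5e and Ndufv3 together with 15 more, among them Ndufs8, Uqcr11, Uqcrb, Uqcrq, Cox6b1, Cox6c, Cox7c, Atp5j and Atp5k. The calls of the 10 were thus made under both scalings, whereas 15 of the 18 lower calls were made only after scaling. With median-ratio scaling 10 nuclear members were called higher and 26 lower, against 43.9% and 34.2% of all genes. The fit scaled to rows without mt- called 28 nuclear members in all, but 11 without DOX + K35 replicate 1 (C1), 13 without DOX + K35 replicate 2 (C2) and 14 without library B3. Of these calls, 10 were higher in the full fit, 8 without C1, 9 without C2 and 9 without B3. Without library B4, 8 were called higher and 22 lower.

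**Figure D3:**
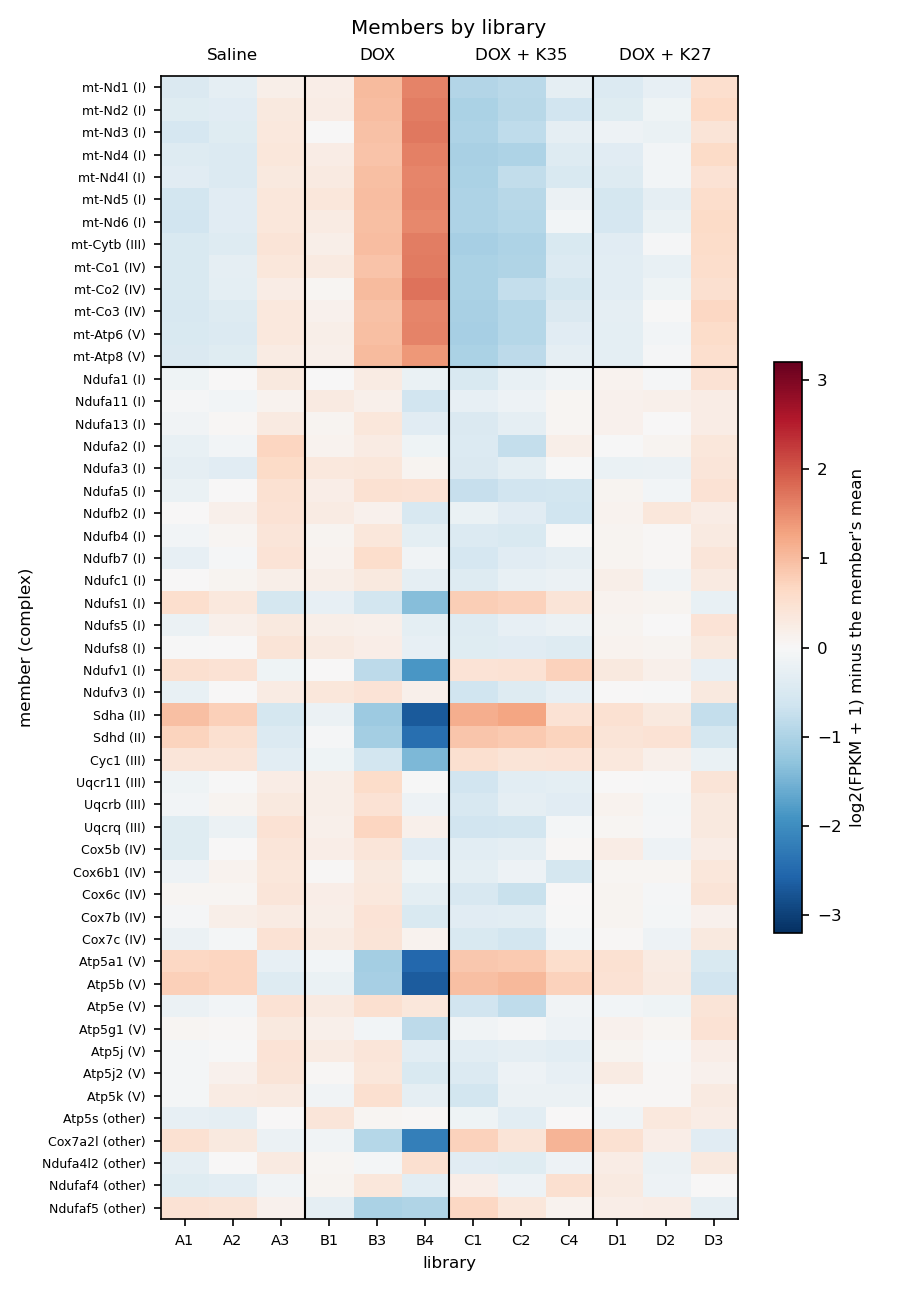
log2(FPKM + 1) of the members shown minus their means over the 12 libraries, with mitochondrially encoded members above the line and nuclear members below. Library letters give the group, as headed. Sdha, Sdhd, Atp5a1, Atp5b and Cox7a2l are lowest in DOX library B4, where the 13 mitochondrial rows are highest.

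Both members of complex II that were in the table rose. Sdha (chr13:74322254-74350280, minus strand), the flavoprotein that oxidises succinate and so also a TCA cycle enzyme, had 119, 103 and 40.9 FPKM for Saline, 53.0, 26.6 and 8.56 for DOX, 138, 147 and 83.4 for DOX + K35 and 85.3, 75.0 and 35.3 for DOX + K27. The DOX + K35 libraries were all above the DOX libraries, and Saline and DOX overlapped. Sdha rose by 2.31 ± 0.58 (SE) on the log2 scale in DOX + K35 against DOX (limma adjusted p = 0.00653). In DOX against Saline its log2 fold change was -1.73 ± 0.58 (adjusted p = 0.0612 by limma). Sdhd (chr9:50596357-50603812, minus strand), the small membrane anchor that helps to bind ubiquinone, had 126, 109.6 and 55.3 FPKM for Saline, 73.3, 34.9 and 13.4 for DOX, 141, 137 and 125 for DOX + K35 and 102, 105 and 51.3 for DOX + K27. Its groups fell in the same order of means as those of Sdha, and DOX + K35 again lay wholly above DOX. Its log2 fold change was 2.003 ± 0.52 in DOX + K35 against DOX (limma adjusted p = 0.00698). Sdhb and Sdhc were not analysed here.

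**Figure D4:**
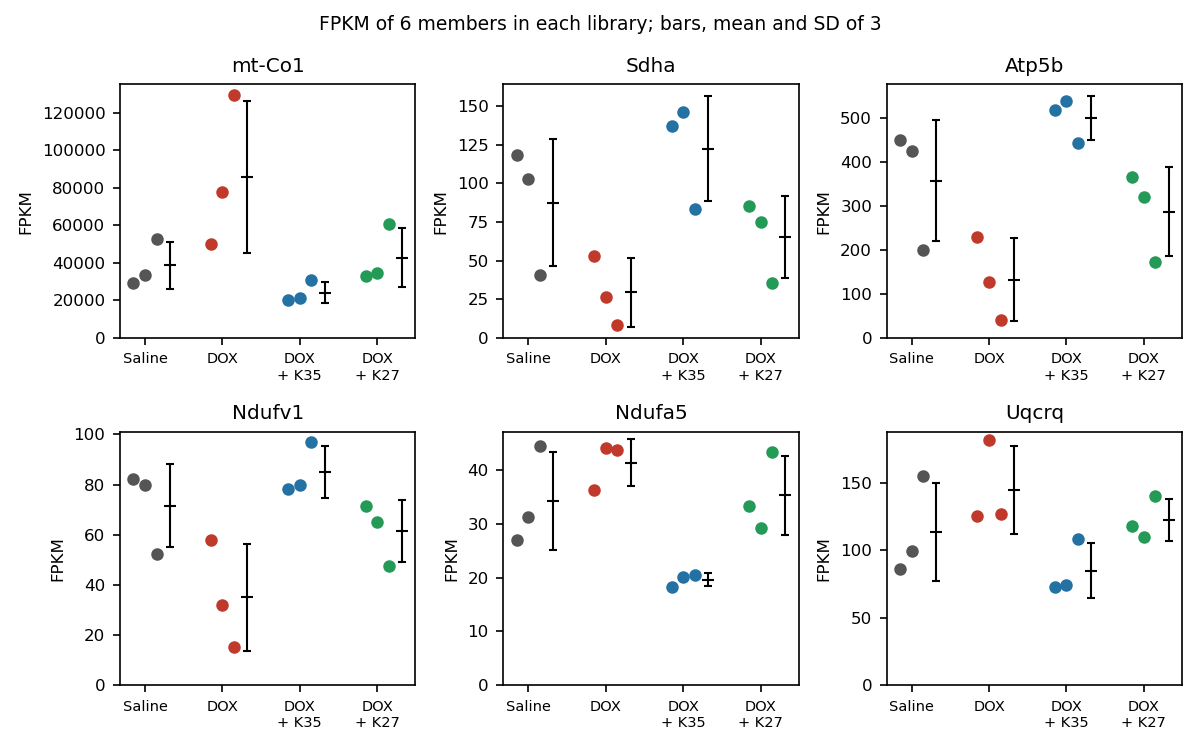
FPKM in each library (points) with the mean and SD of 3 libraries (bars) for 6 members, 1 panel each, all axes starting at 0. DOX has the highest mean in mt-Co1 and the lowest in Sdha, Atp5b and Ndufv1, and DOX + K35 has the lowest mean in Ndufa5 and Uqcrq.

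In complex V the 2 catalytic subunits parted from the rest. Atp5b (chr10:128083273-128090391, plus strand), the beta subunit on which ATP is made and the highest nuclear member on the FPKM scale, had 449, 424 and 199 FPKM for Saline, 229, 126 and 40.6 for DOX, 518, 539 and 444 for DOX + K35 and 366, 321 and 173 for DOX + K27. The 3 DOX + K35 values exceeded all DOX values, and the highest DOX value was 5.65 times the lowest. Atp5b rose by 2.23 ± 0.54 (SE) in log2 in DOX + K35 against DOX (limma adjusted p = 0.00594). Atp5a1, the alpha subunit that alternates with beta in the same ring, had 348, 352 and 183 FPKM for Saline, 205, 102 and 37.1 for DOX, 398, 393 and 322 for DOX + K35 and 308, 262 and 156 for DOX + K27. Within DOX and within DOX + K27, alpha and beta ranked the libraries alike. Atp5a1 also passed the test in DOX + K35 against DOX (log2 fold change 1.99 ± 0.52, limma adjusted p = 0.00734).

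The small subunits of complex V gave another picture. Atp5e (chr2:174461072-174464105, minus strand), the epsilon subunit of the rotating stalk, had 109, 117 and 172 FPKM for Saline, 152, 178 and 161 for DOX, 81.7, 70.4 and 115 for DOX + K35 and 118, 113 and 165 for DOX + K27. It fell by 0.90 ± 0.32 in log2 in DOX + K35 against DOX (limma adjusted p = 0.0278), a call lost in some of the fits that left out 1 library. Atp5g1 (c ring), Atp5j (peripheral stalk), Atp5j2 and Atp5k (membrane part) had log2 fold changes from -0.43 to 0.14 in this comparison, and none passed the test. The ratio of Atp5b to Atp5e, whose proteins meet in the same enzyme, ran from 0.252 in library B4 to 7.66 in library C2.

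Complex I was split in the same way. Ndufv1 (chr19:4007384-4012806, minus strand), which binds NADH and takes the first electrons, had 82.2, 79.9 and 52.4 FPKM for Saline, 57.7, 32.1 and 15.1 for DOX, 78.1, 79.9 and 96.9 for DOX + K35 and 71.5, 65.1 and 47.5 for DOX + K27. All DOX + K35 libraries lay above all DOX libraries. Its log2 fold change was 1.44 ± 0.41 in DOX + K35 against DOX (limma adjusted p = 0.00956). Ndufs1 (chr1:63143596-63176833, minus strand), the largest iron-sulphur subunit, had 38.1, 33.0 and 17.2 FPKM for Saline, 21.4, 16.9 and 9.37 for DOX, 45.3, 43.5 and 34.9 for DOX + K35 and 27.8, 27.8 and 21.6 for DOX + K27. Both of these core subunits were lowest in B4. Ndufs1 rose by 1.38 ± 0.35 in log2 in DOX + K35 against DOX (limma adjusted p = 0.00675).

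Core function did not by itself mark the members that rose. Ndufs8 (chr19:3908863-3912774, minus strand), also a core iron-sulphur subunit and the highest nuclear member of complex I, had 78.3, 79.4 and 106 FPKM for Saline, 97.9, 92.8 and 65.7 for DOX, 60.3, 61.0 and 59.8 for DOX + K35 and 86.2, 84.2 and 99.6 for DOX + K27. Its log2 fold change was -0.47 ± 0.29 in DOX + K35 against DOX (limma adjusted p = 0.175), with groups that did not overlap. None of the 12 accessory subunits rose, and Ndufa5 and Ndufv3 fell. Ndufa5 (chr6:24518666-24528013, minus strand), an accessory subunit of the peripheral arm, had 26.9, 31.2 and 44.5 FPKM for Saline, 36.3, 44.1 and 43.7 for DOX, 18.3, 20.1 and 20.5 for DOX + K35 and 33.3, 29.2 and 43.4 for DOX + K27. The DOX + K35 libraries were the lowest 3 of all 12. Ndufa5 fell by 1.03 ± 0.28 in log2 in DOX + K35 against DOX (limma adjusted p = 0.00824). Ndufv3 (chr17:31520115-31531331, plus strand), an accessory subunit beside Ndufv1, had 26.4, 31.8 and 38.3 FPKM for Saline, 41.0, 42.6 and 35.4 for DOX, 19.8, 23.3 and 26.3 for DOX + K35 and 31.7, 31.2 and 39.1 for DOX + K27. Its direction was opposite to that of its neighbour, with a log2 fall of 0.76 ± 0.27 (limma adjusted p = 0.0255).

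In complex III, Cyc1 (chr15:76343523-76346260, plus strand), the cytochrome c1 that passes electrons to cytochrome c, had 104, 104 and 63.1 FPKM for Saline, 72.8, 52.7 and 28.5 for DOX, 115, 107 and 109 for DOX + K35 and 102, 89.6 and 69.1 for DOX + K27. Every DOX value was below every DOX + K35 value. Cyc1 rose by 1.18 ± 0.37 in log2 in DOX + K35 against DOX (limma adjusted p = 0.0135). Uqcrq (chr11:53427922-53430831, minus strand), a small accessory subunit that contacts cytochrome b, had 86.4, 99.4 and 155 FPKM for Saline, 126, 182 and 127 for DOX, 72.6, 74.0 and 108 for DOX + K35 and 118, 109.7 and 140.2 for DOX + K27. Its log2 fold change was -0.77 ± 0.33 (limma adjusted p = 0.0625), and Uqcr11 and Uqcrb (the highest nuclear member of complex III) gave -0.67 and -0.54, also short of the threshold.

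None of the 5 nuclear members of complex IV passed the test in any of the 6 comparisons with the values as deposited. Cox6c (chr15:35925886-35938246, minus strand), the highest of them, had 213, 213 and 266 FPKM for Saline, 237, 258 and 163 for DOX, 141, 123 and 203 for DOX + K35 and 216, 196 and 269 for DOX + K27. DOX + K35 overlapped with DOX and with DOX + K27 and lay below Saline. The 5 log2 fold changes in DOX + K35 against DOX lay between -0.64 (Cox7c) and -0.27 (Cox5b), and those in DOX against Saline between -0.10 (Cox7b) and 0.19 (Cox7c). These 5 are small accessory subunits with no catalytic role. After scaling to rows without mt-, Cox6b1, Cox6c and Cox7c were called lower in DOX + K35 than in DOX by limma.

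Among the 5 members outside the complexes, Cox7a2l (chr17:83501918-83517330, minus strand) was classed here as a supercomplex factor, and its function in these mice was not examined. Cox7a2l had 60.4, 52.9 and 37.1 FPKM for Saline, 39.1, 22.2 and 8.63 for DOX, 71.8, 57.4 and 91.8 for DOX + K35 and 60.3, 49.8 and 32.8 for DOX + K27. It rose by 1.82 ± 0.45 in log2 in DOX + K35 against DOX (limma adjusted p = 0.00611). Ndufaf5 (chr2:140170649-140203689, plus strand), an assembly factor that modifies Ndufs7, had 3.68, 3.54 and 2.77 FPKM for Saline, 1.83, 0.695 and 0.760 for DOX, 4.38, 3.37 and 2.68 for DOX + K35 and 2.93, 3.04 and 1.81 for DOX + K27. DOX was the lowest group without overlap with Saline or DOX + K35. Its log2 fold change was 1.12 ± 0.24 in DOX + K35 against DOX (limma adjusted p = 0.00526). Ndufaf4, Ndufa4l2 and Atp5s, none of which passed the test there, gave 0.15, -0.47 and -0.32.

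In DOX against Saline no nuclear member passed the test, and 10 had an unadjusted p under 0.05. These 10, among them Atp5b, Atp5a1, Sdhd, Cox7a2l, Ndufv1, Ndufaf5 and Cyc1, had log2 fold changes from -1.73 (Sdha) to -0.85 (Ndufs1), with limma adjusted p from 0.0612 to 0.0805. This comparison shares the DOX libraries with DOX + K35 against DOX, so its signs are not independent of those above. The other 29 nuclear members had log2 fold changes from -0.39 to 0.37, with a median of -0.02. After scaling to rows without mt- the median of these 29 was 0.24 and again no member was called, while 0.15% of all genes were. With values as deposited and without Saline replicate 3, or without DOX replicate 1, 10 nuclear members were called lower in DOX, where 31.3% and 42.1% of all genes were called lower. With scaling to rows without mt-, the nuclear members called lower numbered 3 without Saline replicate 3 and 8 without DOX replicate 1.

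In DOX + K27 against DOX no member passed the test. The 13 mitochondrial rows had log2 fold changes from -1.08 (mt-Nd5) to -0.76 (mt-Co3), with 10 at an unadjusted p under 0.05 and limma adjusted p from 0.155 to 0.196. Of the nuclear members 9 had an unadjusted p under 0.05, with Atp5b at 1.36 ± 0.54, Sdha at 1.35 ± 0.58 and Atp5a1 at 1.32 ± 0.52 as the highest. Over all genes 0.0603% were called, 29.3% had an unadjusted p under 0.05, and 18.6% did not overlap, against 1 of the 52 members (Ndufs1). After scaling to rows without mt- 0% of all genes and no member were called. The outcome turned on library B1. Without it all 13 mitochondrial rows were called lower and 9 nuclear members higher by limma, against 0.726% and 32.6% of all genes. These were values as deposited. With scaling to rows without mt-, the fit without B1 called 0 nuclear members.

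K35 and K27 were given at the same dose, by the same route and over the same days, so their groups were compared directly as the only pair of compounds. No member differed past the threshold, while 2.11% of all genes did, and 3.61% after scaling to rows without mt-. At an unadjusted p under 0.05 there were 5 mitochondrial and 2 nuclear members, against 28.4% of all genes. The log2 difference, K35 minus K27, was -0.80 for mt-Co1 (95% interval -1.59 to 0.0012), 0.95 for Sdha (-0.29 to 2.19), 0.87 for Atp5b (-0.29 to 2.03) and -0.80 for Ndufa5 (-1.40 to -0.19). These intervals are wide and do not show that the compounds act alike. The groups did not overlap for 9 mitochondrial and 25 nuclear members, against 49.5% of all genes. Libraries with the same replicate number correlated at 0.109 to 0.474 in their deviations across genes, within the range of other pairs (-0.679 to 0.559). The numbers are thus not shown to mark pairs of mice. A fit with the number as a block dropped B3, B4 and C4 and so left 2 DOX + K35 libraries. It called all 13 mitochondrial members lower with K35, 4 nuclear members higher (Sdha, Sdhd, Atp5a1 and Atp5b) and 15 lower. In that fit 25.1% of all genes were called higher and 18.5% lower. The same 9 libraries without the block gave 5 mitochondrial and 0 nuclear calls.

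Against Saline, neither compound group differed past the threshold in any member. In DOX + K35 the 13 mitochondrial rows had log2 fold changes from -0.70 to -0.46 and the nuclear median was -0.37, with 2 nuclear members at an unadjusted p under 0.05. Over all genes 0.181% were called and 16.6% had an unadjusted p under 0.05. In DOX + K27 the mitochondrial rows lay between 0.11 and 0.31 and the nuclear median was 0.01, with no member at an unadjusted p under 0.05, against 0.121% of all genes called and 5.94% at an unadjusted p under 0.05. The mitochondrial to nuclear ratio was 0.697-fold (DOX + K35) and 1.19-fold (DOX + K27) that of Saline (exact permutation p = 0.3 and 0.5).

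Libraries of 1 group also differed among themselves in these members. In every group the library with the highest mitochondrial to nuclear ratio (A3, B4, C4 and D3) was compared with the rest. Of the 10 nuclear members that rose in DOX + K35 against DOX, 5 were lowest in that library in all 4 groups, and of the other 29 none were. Over the 66 pairs of libraries, Sdha or another of the 10 was ordered against the ratio in 57 to 65 pairs, with a median of 61.5, and the other 29 in 6 to 29 pairs, with a median of 17. These counts describe 12 libraries whose FPKM values share 1 total, and no test was made on them. The 10 were also chosen from these same libraries and are part of the nuclear sum in the ratio. Their split from the other 29 was thus partly built in.

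The nuclear members also separated by length, a feature chosen after their values were seen. Of 9 nuclear members with a coding length of at least 900 nucleotides, 8 rose in DOX + K35 against DOX and 1 (Ndufv3) fell. Coding length was that of the longest isoform, and Ndufv3 is long by its coding length of 1404 nucleotides only, with a transcript length of 645 from another isoform. Of 30 shorter ones, 2 rose (Sdhd at 477 and Cox7a2l at 402 nucleotides) and 2 fell. Across the 39, the correlation of log2 coding length with the log2 fold change was 0.75 in DOX + K35 against DOX and -0.70 in DOX against Saline (Pearson), or 0.63 and -0.47 (Spearman), as a description of genes that share libraries. Over the 3075 other genes with a known coding length the Spearman correlations were -0.09 and 0.22.

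Members were also set beside other genes of the same length. In DOX + K35 against DOX, 188 other genes with a coding length under 450 nucleotides had a median log2 fold change of -0.30, and the 26 nuclear members of that length -0.39. From 900 to 1800 nucleotides the medians were 0.93 for 1195 other genes and 1.44 for 7 members. Medians were farther apart from 450 to 900 nucleotides (0.92 for 568 other genes and -0.09 for 4 members) and from 1800 to 3000 (0.57 for 691 and 1.85 for 2). Over the 13 mitochondrial members the Spearman correlation with coding length was -0.59 in DOX + K35 against DOX and 0.33 in DOX against Saline, within the narrow range of log2 fold changes given above. Since most catalytic subunits are long and most accessory subunits are short, role and length cannot be told apart in these members. With a trend on transcript length removed the same 10 nuclear members were called higher in DOX + K35 than in DOX by limma. Atp5k and Ndufa1 were called higher as well, and 8 nuclear and 10 of the 13 mitochondrial members lower, against 35.9% and 34.3% of all genes. That trend was fitted over all genes with a length and need not remove the members' own relation to length. Spearman correlations with transcript length there were 0.73 for the 39 nuclear members and 0.001 for other genes.

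**Figure D5:**
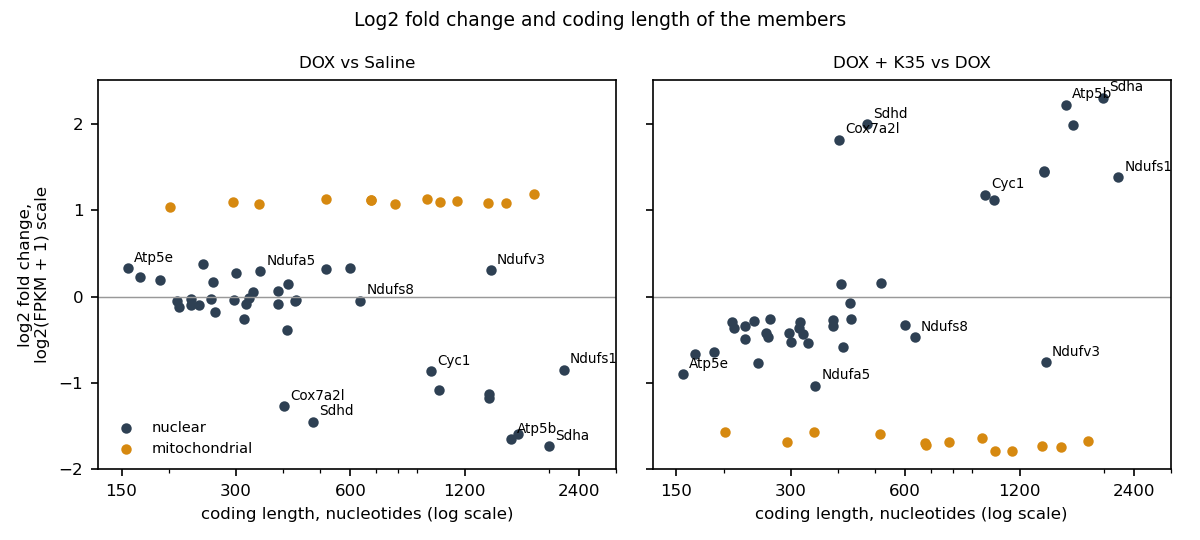
Log2 fold change (log2(FPKM + 1) scale) against coding length (log axis) for the 39 nuclear and 13 mitochondrially encoded members in 2 comparisons that share the DOX libraries. Long nuclear members such as Atp5b and Sdha lie far from 0, as do the short Sdhd and Cox7a2l. Ndufv3, long by its coding length, has the sign opposite to the other long members. Mitochondrially encoded members span a narrow range of fold changes, with a Spearman correlation with length of -0.59 in DOX + K35 against DOX.

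Neighbouring mitochondrial pathways were counted from lists written for this purpose, in DOX + K35 against DOX unless stated, where 46% of all genes were called higher and 10.7% lower. The list for the TCA cycle, which feeds NADH and succinate to the chain, also held genes of pyruvate dehydrogenase (such as Pdha1 and Dlat) and pyruvate carboxylase (Pcx). Of its 18 genes 11 were in the table. All 11 rose in DOX + K35 against DOX, with log2 fold changes from 0.86 (Fh1) to 1.77 (Suclg1) by limma. In DOX against Saline the same 11 lay between -1.63 and -0.79, and none passed the test. All 7 mitochondrial chaperones and proteases tested rose, led by Hspa9 at 2.20 and Hspd1 at 1.77, which import and fold matrix proteins. The 6 genes of mitophagy and membrane shape that were tested rose as well, among them Opa1 at 1.26 and Pink1 at 1.25. Etfdh, which carries electrons from fatty acid oxidation to ubiquinone, rose by 2.22, and 3 of 8 tested genes for carriers and electron entry rose.

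Assembly factors went both ways, as did all genes tested, of which 46% were called higher and 10.7% lower. Of 14 in the table, 5 rose (Nubpl at 1.49, Coa5, Taco1, Cox10 and Cox15) and 2 fell (Cox17, a copper chaperone, at -0.87 and Cox20 at -0.94). Among genes that copy or process mitochondrial DNA and RNA, 6 were tested. Tfam, which packages mitochondrial DNA and starts its transcription, rose by 1.05, Grsf1 by 1.34 and Ptcd2 by 1.40, opposite to the mitochondrial mRNAs. The terminator-type factor Mterf1a fell by 0.63, from a low mean of 1.60 FPKM in DOX to 0.70 in DOX + K35. Ssbp1 and Fastk were not called, with means of 20.2 and 25.4 FPKM in DOX and 14.3 and 21.1 in DOX + K35. The 3 of 6 called higher are a share near the 46% of all genes. Of 4 regulators of nuclear subunit genes, Ppargc1a (a coactivator of mitochondrial genes) rose by 0.75, and Esrra, Gabpb1 and Ppargc1b gave -0.05, -0.23 and -0.27. Both antioxidant genes tested, Prdx3 and Gpx1, rose (1.46 and 1.31). After scaling to rows without mt-, 9 of 11 genes on the TCA cycle list and 7 of 7 chaperones and proteases were called higher. So were 5 of 6 genes of mitophagy and shape and 5 of 14 assembly factors, while 7 of 14 assembly factors were called lower. Over all genes 42.4% were called higher and 27.6% lower. In DOX + K27 against DOX and in DOX against Saline no gene on these lists was called by limma.

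Markers of liver cell types were examined as well, and their calls in DOX + K35 against DOX stand against 46% of all genes called higher and 10.7% lower. In bulk liver, fewer cells of a type and less RNA per cell cannot be told apart. Hepatocyte markers were abundant in every library (6 of 12 in the table, summed 13299 to 23798 FPKM), with Cyp2e1 down to 381 FPKM in library B4, and 3 of the 6 were called higher in DOX + K35 than in DOX. The 4 of 5 erythroid markers in the table summed to 330 to 506 FPKM in Saline, 821 to 1135 in DOX, 62.2 to 596 in DOX + K35 and 452 to 1072 in DOX + K27, and all 4 were called lower in DOX + K35 than in DOX. The 6 of 10 Kupffer cell markers summed to 73.4 to 202, 18.5 to 53.0, 53.1 to 84.3 and 53.9 to 97.0 FPKM in the same order, and 4 were called higher in DOX + K35 than in DOX. Both endothelial markers present were called higher and the 1 lymphocyte and 1 of 4 stellate cell markers lower. No marker in the table was at 0 in all libraries, and lists for cholangiocytes, neutrophils, muscle and brown fat matched 0 rows. Their part in the results on the respiratory chain was not tested.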

How the data were processed

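Poly(A)-selected liver RNA of 12 mice was sequenced. The authors deposited 1 table with an expression value per gene and library for 3799 selected genes. Its header names no unit, and the deposited values were treated as FPKM. The submitters' processing notes name HISAT2, DESeq2, edgeR and GRCm38, without versions or roles. Low values shared no common step, so depth is unknown. All 3519 Ensembl identifiers in the table were found in GENCODE M21 (GRCm38), and 280 rows had none. The members and gene lists were chosen with earlier results of these data known, and genes were named by rule: in each nuclear class the highest mean and the extreme log2 fold changes in DOX against Saline and DOX + K35 against DOX, every mt- row, and members that passed the test against the sign of their class median. The values of 1 member are not reported here.

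The 3317 genes whose mean reached 1 FPKM entered limma 3.58.1 (R 4.3.3) on log2(FPKM + 1), with 1 coefficient per group for the 12 libraries and a mean-variance trend in eBayes. Benjamini-Hochberg adjustment was made per comparison (6 in all, threshold 0.05). For ratios, a two-sided exact permutation test was used. The alternatives were scaling to the sum of rows without mt-, median-ratio scaling, a pseudocount of 0.1, no filter, fits of only the 2 groups compared, removal of a length trend (lowess span 0.3), the replicate number as a block, and omission of single libraries. Omission with the mt-free scaling, and the 9 numbered libraries without a block, were added after seeing the data. Scripts were tested on simulated data. Same-numbered Saline and DOX + K27 libraries correlated at 0.176 to 0.474 in their deviations, all same-numbered pairs at 0.109 to 0.474 and other pairs at -0.679 to 0.559. These ranges overlap, and the mice were different animals. The main fit therefore had no block, and the replicate number was a block only in the alternative named above.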

Additional observations from a re-analysis of the deposited data

How the results depend on the processing

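With values as deposited, all 13 mitochondrial calls in DOX + K35 against DOX held under every alternative run except removal of the length trend, which called 10. The number of nuclear calls there was 13, and 28 after scaling to the sum of rows without mt-, 36 with median-ratio scaling and 20 with the length trend removed, while calls over all genes were 1527 higher and 356 lower, then 1410 and 918, 1456 and 1133, and 1123 and 1072. The 10 nuclear members called higher were called under each of these 3. Nuclear calls in DOX against Saline numbered 0, and 8 with median-ratio scaling and 6 with the length trend removed, and mitochondrial calls 0, and 3 and 6, while calls over all genes were 335 higher and 729 lower, and 452 higher and 305 lower. In DOX + K35 against DOX + K27 the nuclear count was 0, but 1 with the length trend removed and 19 with the replicate block, and the mitochondrial count was 13 with the block and 5 in the same 9 libraries without it, with 834 higher and 614 lower, and 307 higher and 370 lower, over all genes. The block changed no call in DOX + K27 against Saline. No paired analysis was possible for the comparisons with DOX because 1 DOX library alone could be tied to a replicate number in the labels. Leaving out each library gave 0 to 10 nuclear and 0 to 13 mitochondrial calls in DOX against Saline, 0 to 9 and 0 to 13 in DOX + K27 against DOX, and 11 to 21 nuclear calls in DOX + K35 against DOX (21 without library B4). The log2 ratio of DOX + K27 to Saline ran from -0.024 (without DOX + K27 replicate 3) to 0.50, and so changed sign. The cause of these changes was not tested. A version without ribosomal or transfer RNA rows was not run, as there are none, and count-based tests were not run. With 3 libraries a group and no depth, small differences between members could not be resolved.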
